A study of Mus musculus with 8 samples.

Results

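The genes described here encode the nuclear subunits of oxidative phosphorylation, together with a few assembly factors that share their names. They were taken as every probe whose gene symbol on the array platform begins with Nduf, Uqcr, Cox4 to Cox8 or Atp5, or is Sdha, Sdhb, Sdhc or Sdhd. The rule used names only and no measured value. It found 107 of 25697 probes, which stand for 85 of 16593 named genes. By respiratory complex these were 33 genes of complex I, 5 of its assembly factors, 1 gene annotated as a pseudogene of complex I (Ndufs5-ps), 3 genes of complex II, 8 of complex III, 19 of complex IV and 16 of complex V.

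The samples were CD4 T cells sorted from mixed bone marrow chimeric mice of C57BL/6 background, in which B6.CD45.1 hosts had received a split dose of 1200 rads and both kinds of donor marrow more than 8 weeks earlier. There were 4 groups of 2 arrays each. NIKtg Treg (RFP+ Thy1.1- CD4+ GFP+) and NIKtg CD4 Tconv (RFP- Thy1.1- CD4+ GFP+) came from NIKtg/CD4Cre/Foxp3RFP marrow, in which a Map3k14 transgene at the ROSA26 locus is switched on by Cre under the CD4 promoter. WT Treg (RFP+ Thy1.1+ CD4+ GFP-) and WT CD4 Tconv (RFP- Thy1.1+ CD4+ GFP-) came from B6.Thy1.1/Foxp3RFP marrow. All 4 groups carry the Foxp3 RFP reporter and developed in irradiated hosts. NIKtg and WT cells also differ in Cre, in the GFP gate and in the Thy1 allele, and no group carries Cre and GFP without the transgene, so these differences cannot be told apart from that of the transgene. CD4-Cre is active from the thymus on and in cells of both Treg and Tconv type. Map3k14 encodes NIK, the kinase that starts the alternative NF-kB pathway. Nothing in the labels says that both arrays of a group stem from separate mice. P-values therefore measure only the spread between these arrays, which may be technical.

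Oxidative phosphorylation couples the oxidation of NADH and succinate to the synthesis of ATP in the inner mitochondrial membrane. Complexes I and II pass electrons to ubiquinone, complex III passes them to cytochrome c and complex IV to oxygen. Complexes I, III and IV pump protons, and complex V, the ATP synthase, uses the gradient to make ATP through a rotating central stalk held against a fixed peripheral stalk. A small part of the subunits is encoded in mitochondrial DNA and was not analysed here. In mouse T cells, Treg are known to rely more on this pathway than freshly activated conventional T cells, which turn to glycolysis.

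Values are normalized probe intensities on the log2 scale. Changes are log2 fold changes with their standard errors from limma, fitted to all 8 arrays, and a gene counted as higher or lower where its limma p, adjusted by Benjamini and Hochberg over 7926 genes, was under 0.05. The mean unnormalized intensity of an array was 461 and 474 on the NIKtg Treg arrays, 565 and 566 on the WT Treg arrays, 618 and 777 on the NIKtg Tconv arrays and 557 and 667 on the WT Tconv arrays. It was thus lowest on the NIKtg Treg arrays. The NIKtg Tconv and WT Tconv arrays overlapped in it, as did the WT Treg and WT Tconv arrays. All 4 T cell markers on the array were detected on every array. Their sum on the linear scale was 35583 to 36978 in NIKtg Treg and 42346 to 45480 in WT Treg. It was 43836 to 45175 in NIKtg Tconv and 38597 to 38706 in WT Tconv. The sum of 4 Treg markers was 16519 to 18911 in NIKtg Treg and 24003 to 26067 in WT Treg. In NIKtg Tconv it was 1468 to 1519, and in WT Tconv 1710 to 1784. The median log2 change of these 4 was -0.41 in NIKtg Treg and -1.26 in NIKtg Tconv, each against WT. Foxp3, the defining factor of Treg, whose RFP reporter set the gates, read 13.19 and 13.36 in NIKtg Treg, 13.48 and 13.57 in WT Treg, 6.07 and 7.01 in NIKtg Tconv and 8.05 and 8.82 in WT Tconv. Map3k14 read 9.65 and 9.76 in NIKtg Treg against 9.61 and 9.63 in WT Treg, and 9.60 and 9.59 in NIKtg Tconv against 10.20 and 10.03 in WT Tconv. Its probe thus did not show the transgene in Treg (0.09 ± 0.11, limma adjusted p = 0.579) and was lower in the NIKtg Tconv arrays (-0.52 ± 0.11, limma adjusted p = 0.0102). Whether this probe can read the transgene's transcript is unknown here, so NIKtg below stands for arrays labelled so. Likewise, NIK effect stands for the difference NIKtg minus WT, with all that differs between these labels.

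Promoters of these genes are known to carry sites for the respiratory factor NRF1, for GABP (also called NRF2), for YY1 and for SP1. RefSeq promoter windows of GRCm38.p6, 300 bases from 250 before the gene start, were at hand for 70 of the 85 genes. These gave 75 windows, set against 32851 windows of all genes. Both strands were searched. The NRF1 letters, GCGCA and GCGC with any base between them, occurred in 22.7% of the members' windows, against 4.6% of all windows. The GABP letters CCGGAAG occurred in 22.7% against 8.86%, the YY1 letters AAGATGGC in 13.3% against 2.75% and the SP1 letters GGGCGG in 44% against 35.7%. The NF-kB letters, GGG and TTTCC with any 2 bases between them and searched because NIK acts through that family, occurred in 1.33% of the members' windows, against 1.63% of all windows. The 200 bases before the start are shown for 4 genes called in the comparison of NIK effects between Treg and Tconv. Assembly factors and the pseudogene were left out of this choice. Of the other members with a window that were called in it and detected on all arrays, Atp5pb and Cox7a2l had the lowest values. Ndufb4 and Atp5d had the highest. Capitals mark matches to these letters on either strand.
Atp5pb (chr3:105959264-105959463, minus strand): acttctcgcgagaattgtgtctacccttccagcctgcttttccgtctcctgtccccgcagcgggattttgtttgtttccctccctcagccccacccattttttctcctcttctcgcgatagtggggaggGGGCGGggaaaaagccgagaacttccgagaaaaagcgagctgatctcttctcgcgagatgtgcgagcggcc
Cox7a2l (chr17:83514334-83514533, minus strand): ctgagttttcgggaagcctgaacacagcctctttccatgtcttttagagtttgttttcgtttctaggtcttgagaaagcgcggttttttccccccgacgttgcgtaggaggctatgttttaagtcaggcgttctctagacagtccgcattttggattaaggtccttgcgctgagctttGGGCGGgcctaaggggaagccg
Ndufb4 (chr16:37654369-37654568, minus strand): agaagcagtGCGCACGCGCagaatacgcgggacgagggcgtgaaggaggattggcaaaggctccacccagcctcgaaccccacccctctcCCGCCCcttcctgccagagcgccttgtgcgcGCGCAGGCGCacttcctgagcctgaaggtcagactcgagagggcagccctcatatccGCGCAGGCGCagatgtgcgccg
Atp5d (chr10:80142075-80142274, plus strand): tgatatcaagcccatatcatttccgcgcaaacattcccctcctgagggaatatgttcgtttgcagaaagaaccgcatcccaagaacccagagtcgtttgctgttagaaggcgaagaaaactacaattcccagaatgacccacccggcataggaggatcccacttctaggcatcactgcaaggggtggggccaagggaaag
Ndufb4 had 3 NRF1 matches and 1 SP1 match, Atp5pb and Cox7a2l had 1 SP1 match each, and Atp5d had none, and no matches overlapped. A match is a run of letters and not a measured binding site.

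Of the 85 genes, 75 were detected on at least 2 arrays (detection p under 0.01) and were tested. These were 32 of complex I, all 5 assembly factors, the pseudogene, 3 of complex II, 6 of complex III, 13 of complex IV and 15 of complex V. On all 8 arrays 72 of them were detected. The 10 genes that were not tested included several isoforms known for other tissues. Cox4i2 (lung), Cox8b (heart and skeletal muscle), Cox8c (testis) and Cox7b2 (testis) were detected on 0 arrays. Cox7a1 (heart and skeletal muscle) and Cox6b2 (testis) were detected on 1 array each, both in NIKtg Treg. Probes for Ndufs1, a core subunit of complex I, and for Uqcrfs1 and Uqcrq of complex III were also detected on 0 arrays, and the probe for Atp5k on 1. Core subunits are part of every complete complex, so a probe below detection gives no level of such a gene.

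Cox4i1, Atp5a1 and Uqcrc2, which most tissues express, were detected on every array and passed the threshold in 0 of the 5 comparisons. Cox4i1, the common form of subunit IV of cytochrome oxidase, read 13.41 and 13.31 in NIKtg Treg, 13.20 and 13.20 in WT Treg, 13.51 and 13.31 in NIKtg Tconv and 13.27 and 13.31 in WT Tconv. Its NIK effect was 0.16 ± 0.11 in Treg (limma adjusted p = 0.336) and 0.12 ± 0.11 in Tconv (limma adjusted p = 0.43). Atp5a1, the alpha subunit of the catalytic head of ATP synthase, lay between 11.92 and 12.11 on the 8 arrays. Its NIK effect was 0.02 ± 0.11 in Treg and in Tconv alike. Uqcrc2, a core subunit of complex III, lay between 12.31 and 12.68, with NIK effects of 0.13 ± 0.12 in Treg and 0.23 ± 0.12 in Tconv. The single probes of Cox6a1, Cox6b1 and Cox8a used in the tests passed the threshold in none of the 5 comparisons.

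**Figure D1:**
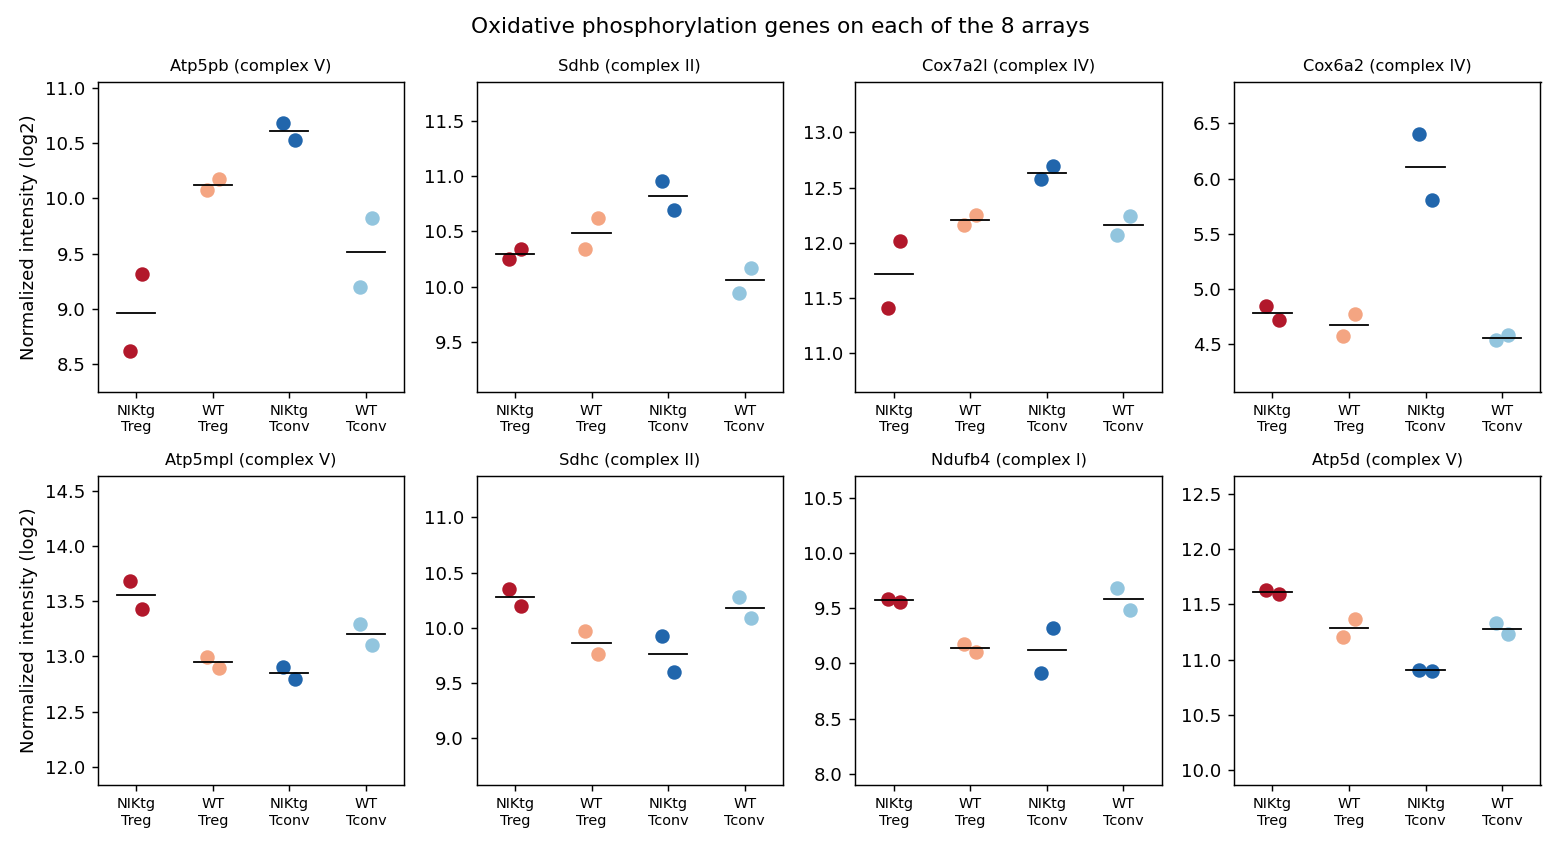
Normalized intensity (log2) of 8 oxidative phosphorylation genes on each array. Each point is 1 array, the line is the mean of the 2 arrays of a group, and every panel spans the same log2 range around its own level. In the top row NIKtg Tconv has the highest mean, and in the bottom row NIKtg Tconv has the lowest mean.

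The first comparison asked how these genes differed between NIKtg Treg and WT Treg. In NIKtg Treg 7 of the 75 genes were higher and 1 was lower than in WT Treg, that is 10.7% called, against 19.9% of all 7926 genes. The median change of the members was 0.12, against 0.06 for all genes. By direction, 10.4% of all genes were called higher and 9.45% lower. The genes that rose were Ndufa7, Ndufb3, Ndufb10 and Ndufv3, accessory subunits of complex I, the pseudogene Ndufs5-ps, Cox7a2 of complex IV and Atp5mpl of complex V. Complex I holds 32 of the 75 tested genes, and 12.5% of them were called.

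Atp5pb, subunit b of the peripheral stalk of ATP synthase, was the 1 gene that fell. It read 8.62 and 9.31 in NIKtg Treg against 10.08 and 10.17 in WT Treg, a change of -1.16 ± 0.26 (limma adjusted p = 0.0219). Both NIKtg arrays lay below both WT arrays (65.9% of all genes had groups that did not overlap), and the 2 NIKtg arrays lay further apart than the 2 WT arrays. Atp5mpl, a small proteolipid that joins the membrane part of ATP synthase, read 13.68 and 13.43 in NIKtg Treg against 12.99 and 12.90 in WT Treg, which gave 0.61 ± 0.13 (limma adjusted p = 0.0181). Thus the largest fall and the largest rise were in the same complex. The other tested genes of complex V ranged in between, and 11 of its 15 had positive values.

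In complex I, 4 of 32 genes were called and all 4 were higher, with a median of 0.18 over the complex. Ndufb10, an accessory subunit of the membrane arm, read 9.91 and 9.91 in NIKtg Treg against 9.45 and 9.30 in WT Treg (0.53 ± 0.11, limma adjusted p = 0.0175). Ndufa7, an accessory subunit of the matrix arm, read 12.21 and 12.15 in NIKtg Treg against 11.63 and 11.75 in WT Treg (0.49 ± 0.10, limma adjusted p = 0.0168). In both genes the 2 groups were far apart for the distance between their arrays. Ndufv3 (0.42) and Ndufb3 (0.37) were called with smaller changes. Ndufa3, an accessory subunit of the membrane arm, missed the threshold by little (0.43 ± 0.13, limma adjusted p = 0.0502).

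In complex IV, 1 of 13 genes was called. Cox7a2, the common isoform of subunit VIIa, read 9.09 and 9.08 in NIKtg Treg against 8.68 and 8.45 in WT Treg (0.52 ± 0.12, limma adjusted p = 0.0263). Its paralogue Cox7a2l, a factor that joins complexes III and IV into supercomplexes and of which C57BL/6 mice carry a short form, had -0.49 ± 0.19 (limma adjusted p = 0.108). Complexes II and III had 0 calls among 3 and 6 genes in the limma test at the adjusted threshold, and 1 gene each at an unadjusted p under 0.05. Without NIKtg Treg array 1, WT Treg array 1 or WT Treg array 2, 0 of the 75 genes were called in this comparison, while 7.82%, 6.38% and 7.14% of all genes were. When each array was centred on its median in place of quantile normalization, 0 genes were higher and 5 lower, with a median of -0.10 for the members and -0.27 for all genes. Here and below, that centring used the median over all 25697 probes, of which 9826 to 10794 were detected on an array.

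**Figure D2:**
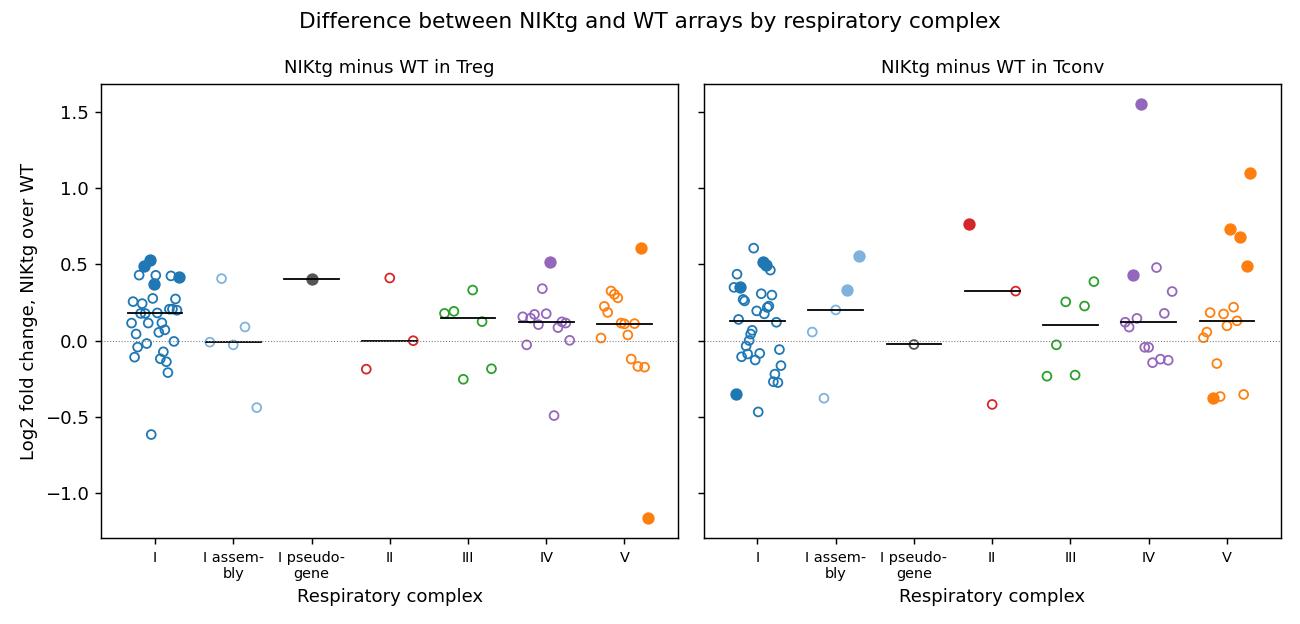
Log2 fold change of NIKtg over WT for each tested gene, by respiratory complex, in Treg (left) and Tconv (right). Filled points passed the limma threshold of 0.05 after adjustment, open points did not, and the black lines are medians. In Treg the lowest point is Atp5pb at -1.16, and in Tconv the highest points are Cox6a2 at a fitted 1.55 and Atp5pb at 1.10.

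The second comparison asked the same in conventional T cells. In NIKtg Tconv 12 of the 75 genes were higher and 2 were lower than in WT Tconv, or 18.7% called, against 30.1% of all genes. The median change of the members was 0.13 and that of all genes -0.08. Among all genes 12.9% were called higher and 17.2% lower. Complex V had 5 of the calls, in 4 of which NIKtg was higher.

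Cox6a2 had the highest value. It is the heart and skeletal muscle isoform of subunit VIa, and it was detected on both NIKtg Tconv arrays and on 0 of the other 6. It read 6.41 and 5.81 in NIKtg Tconv against 4.54 and 4.58 in WT Tconv, with 4.85 and 4.72 in NIKtg Treg and 4.58 and 4.78 in WT Treg. Since the probe was below detection in WT Tconv, it was at least 1.39-fold higher in NIKtg Tconv, a bound for detection alone. It entered the test only through the arrays in which it was high, so its calls had to favour NIKtg Tconv and support nothing. Over the 72 members detected on every array 11 were higher and 2 lower, or 18.1%, against 29.1% of all genes detected on every array. Cox6a1, the widely expressed isoform of the same subunit, lay between 11.74 and 12.03 on its own scale on all 8 arrays.

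Of the 15 tested genes of ATP synthase 4 were higher and 1 was lower in NIKtg Tconv, 33.3% called, close to the 30.1% of all genes. Atp5pb read 10.68 and 10.53 in NIKtg Tconv against 9.20 and 9.82 in WT Tconv (1.10 ± 0.26, limma adjusted p = 0.0182). Atp5h, subunit d of the peripheral stalk, read 12.57 and 12.28 in NIKtg Tconv against 11.68 and 11.71 in WT Tconv (0.73 ± 0.15, limma adjusted p = 0.0105). Atp5l, subunit g of the membrane part, read 11.33 and 11.22 in NIKtg Tconv against 10.47 and 10.73 in WT Tconv (0.68 ± 0.14, limma adjusted p = 0.0104). In these genes every NIKtg Tconv array lay above both WT Tconv arrays, while in 70.1% of all genes the groups did not overlap in one direction or the other. Atp5o, the peripheral stalk subunit that holds the catalytic head, was also higher (0.49). Atp5d, the delta subunit of the central stalk, went the other way with 10.91 and 10.90 in NIKtg Tconv against 11.33 and 11.23 in WT Tconv (-0.38 ± 0.11, limma adjusted p = 0.0322). Atp5g1, an isoform of the c subunit of the rotor, had -0.37 ± 0.14 (limma adjusted p = 0.0827).

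In complex II, Sdhb, the iron-sulphur subunit of succinate dehydrogenase, read 10.95 and 10.69 in NIKtg Tconv against 9.94 and 10.17 in WT Tconv (0.77 ± 0.15, limma adjusted p = 0.0086). Sdhc, one of its membrane anchors, had the opposite sign with -0.42 ± 0.15 (limma adjusted p = 0.071). In complex I, Ndufb7 (0.51) and Ndufb9 (0.50) of the membrane arm and Ndufa2 (0.35) of the matrix arm were higher, and Ndufa10 (-0.35) was lower. Of its assembly factors Ndufaf7, a methyltransferase that acts on a core subunit, had 0.55 and Ndufaf5 0.33, both called. Cox5b of complex IV, at 0.43, was called as well. Ndufb4 missed the threshold with -0.47 ± 0.15 (limma adjusted p = 0.0504). Complex III had 0 calls in the limma test, with 1 gene at an unadjusted p under 0.05.

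The count changed with the arrays in the fit, and leaving out 1 array left a lone array in its group. Without NIKtg Tconv array 1 or WT Tconv array 1, 1 and 2 genes were called higher and 0 lower, with 12.2% and 14.9% of all genes called. Without NIKtg Tconv array 2, 7 were higher and 1 lower. Apart from Cox6a2, each of the 14 called genes was lost without at least 1 array. With either of NIKtg Tconv array 1 and WT Tconv array 1 left out, Sdhb, Atp5h and Atp5l were no longer called. Whichever array was left out, the change stayed at 0.63 to 0.90 for Sdhb, 0.58 to 0.88 for Atp5h and 0.55 to 0.81 for Atp5l.

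Markers of other cells also differed in these arrays. The summed level of 8 CD8 and NK cell markers, on the linear scale, was 11744 to 15058 in NIKtg Tconv and 3968 to 6820 in WT Tconv, against 1734 to 1929 in NIKtg Treg and 1755 to 1794 in WT Treg. Of the 5 tested, however, 1 was higher and 4 were lower in NIKtg Tconv than in WT Tconv (median -1.25), and 0 were called in Treg (median -0.04). Klrb1c and Klrk1 were detected only on the 2 WT Tconv arrays, and Cd8a, Ncr1 and Gzmb on 0 arrays. Klrb1c and Klrk1 thus entered the test only through WT Tconv, so their calls had to favour WT Tconv and support nothing. The sum of 7 B cell markers was 1942 to 2169 in NIKtg Tconv and 651 to 755 in WT Tconv, and it was 3725 to 4132 in NIKtg Treg and 2335 to 2492 in WT Treg. Of the 3 tested, 2 were higher and 1 lower in NIKtg Tconv than in WT Tconv (median 1.70), and 1 was higher and 1 lower in NIKtg Treg than in WT Treg (median -0.47). Pax5 was detected on 0 arrays, and Cd79a, Ms4a1 and Blk on 1 array each. The sum of 8 myeloid and dendritic cell markers was 424 to 523 in NIKtg Tconv, 566 to 638 in WT Tconv, 763 to 823 in NIKtg Treg and 668 to 701 in WT Treg, with Itgam, Itgax, Cd14 and S100a9 detected on 0 arrays. Of the 3 tested, 0 were called higher and 1 lower in NIKtg than in WT in each cell type, with medians of 0.47 in Treg and -0.47 in Tconv. Adgre1, among the 3, was detected on 0 NIKtg arrays and entered the test only through WT, so it could only be called lower in NIKtg. The sum of 6 erythroid and platelet markers was 212 to 225 in NIKtg Tconv and 341 to 342 in WT Tconv, and it was 155 to 203 in NIKtg Treg and 228 to 349 in WT Treg. Both tested ones were lower in NIKtg Treg (median -1.32) and 1 was lower in NIKtg Tconv (median -0.96), with Alas2, Pf4, Ppbp and Itga2b detected on 0 arrays. Hbb-bt, among those tested, was detected on WT arrays alone and likewise entered the test only through WT. The part of other cells in the results here was not tested, and in sorted pools fewer cells of a type and less RNA per cell cannot be told apart.

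The third comparison, the NIK effect in Treg minus the NIK effect in Tconv, asked whether the 2 cell types differed. It called 28 of the 75 genes, 15 with a higher and 13 with a lower NIK effect in Treg. That is 37.3% of the members, against 39.2% of all genes, of which 23% were called higher and 16.1% lower. The median was -0.02 for the members and 0.15 for all genes. Each complex that had more than 1 gene held calls in both directions.

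**Figure D3:**
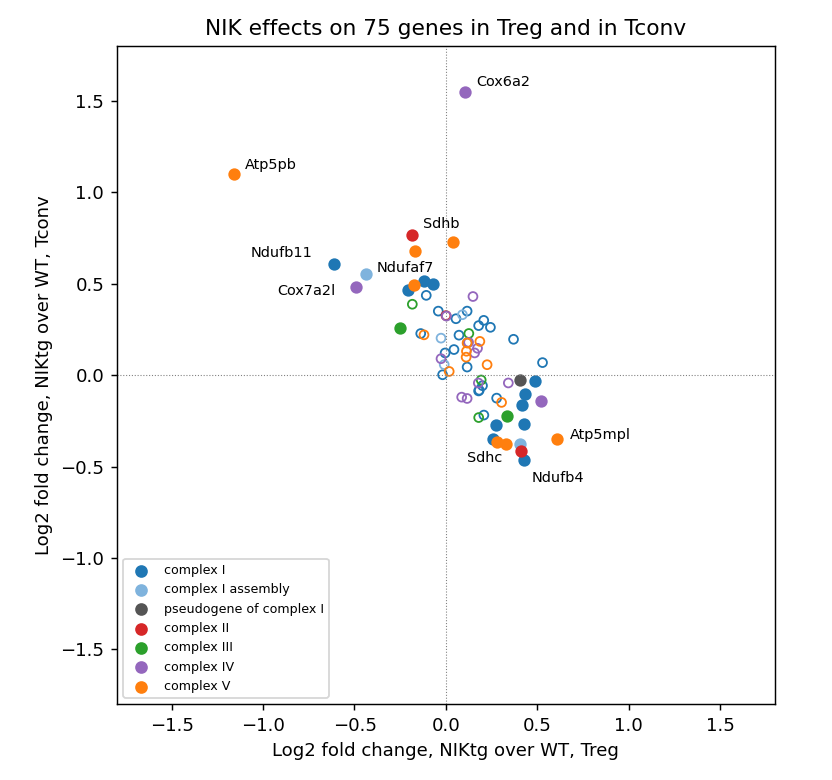
Log2 fold change of NIKtg over WT in Treg (horizontal) and in Tconv (vertical) for the 75 tested genes, coloured by complex. Filled points passed the limma threshold for the difference between both effects, and no gene lies in the lower left corner, where both effects would be negative.

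Among the members, 27 had positive values in both cell types, 27 were positive in Treg and negative in Tconv, 21 were negative in Treg and positive in Tconv, and 0 were negative in both. The members' shares were thus 36%, 36%, 28% and 0%, and those of all genes, in the same order, 16.1%, 41.9%, 25.4% and 16.6%. Pearson's r between both effects was -0.69 over the 75 genes and -0.26 over all 7926 genes (Spearman's rho -0.77 and -0.38). The effects share no arrays, but genes are not independent replicates and share the arrays' normalization and intensity, so this is a description. With median centring the counts became 10, 10, 50 and 5, since 50 genes were then negative in Treg and positive in Tconv. That scaling moved the median of all genes to -0.27 in Treg and 0.09 in Tconv, and the members' medians to -0.10 and 0.24.

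Atp5pb had the lowest value, -2.26 ± 0.37 (limma adjusted p = 0.00357). It was lower in NIKtg Treg and higher in NIKtg Tconv, and both single effects were called. Its values on all 8 arrays were given above, and leaving out any 1 array gave -2.61 to -1.91 with limma adjusted p of at most 0.0196. Sdhb had -0.95 ± 0.21 (limma adjusted p = 0.0114). It read 10.25 and 10.34 in NIKtg Treg against 10.34 and 10.62 in WT Treg, where the arrays nearly met, so its NIK effect was -0.19 in Treg and 0.77 in Tconv. Cox6a2, with a fitted value of -1.44 that is no bound, was below detection in both Treg groups and in WT Tconv. Over the 72 members detected on every array 15 had a higher and 11 a lower NIK effect in Treg, or 36.1%, against 38.1% of all such genes.

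Cox7a2l moved in opposite directions with neither single effect called. It read 11.41 and 12.02 in NIKtg Treg against 12.16 and 12.25 in WT Treg, and 12.58 and 12.70 in NIKtg Tconv against 12.07 and 12.24 in WT Tconv. In each cell type the groups did not overlap, which was also so for 65.9% of all genes in Treg and 70.1% in Tconv. The difference was -0.97 ± 0.27 (limma adjusted p = 0.0253). It missed the threshold when any 1 of 5 arrays was left out, both WT Treg arrays, both NIKtg Tconv arrays or WT Tconv array 1, with limma adjusted p up to 0.0779.

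Ndufb11, an accessory subunit of the membrane arm, had -1.22 ± 0.32 (limma adjusted p = 0.0211), but its probe was near the detection limit and was detected on 0 of 2 NIKtg Treg arrays. The other genes with a lower NIK effect in Treg were Ndufaf7 (-0.99), Atp5l (-0.85), Atp5h (-0.69), the core subunit Ndufs3 (-0.67), Atp5o (-0.67), Ndufb7 (-0.63), Ndufb9 (-0.57) and Uqcrb (-0.51) of complex III. Of the 13 genes, 11 had a negative NIK effect in Treg and a positive one in Tconv, and the other 2 were positive in both. Choosing genes by this difference favours opposite signs, so the split is no separate result.

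On the other side Atp5mpl had 0.96 ± 0.18 (limma adjusted p = 0.00624). It read 12.90 and 12.79 in NIKtg Tconv against 13.29 and 13.11 in WT Tconv, so both NIKtg arrays lay below both WT arrays there, while the order was reversed in Treg. Ndufb4, an accessory subunit of the membrane arm whose promoter is shown above, read 9.59 and 9.55 in NIKtg Treg against 9.18 and 9.10 in WT Treg, and 8.92 and 9.32 in NIKtg Tconv against 9.68 and 9.48 in WT Tconv. Its difference was 0.90 ± 0.21 (limma adjusted p = 0.0143). Sdhc read 10.35 and 10.20 in NIKtg Treg against 9.97 and 9.76 in WT Treg, and 9.93 and 9.60 in NIKtg Tconv against 10.28 and 10.09 in WT Tconv (0.83 ± 0.21, limma adjusted p = 0.0189). Sdhb and Sdhc of the same enzyme thus had differences of opposite sign.

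Atp5d had 0.70 ± 0.15 (limma adjusted p = 0.00963), with 11.63 and 11.59 in NIKtg Treg against 11.20 and 11.37 in WT Treg. Ndufaf3, an assembly factor of complex I, had 0.78, Ndufs6 of the matrix arm 0.69, Cox7a2 0.66 and Atp5g1 0.65. Ndufa10, Ndufv3, Uqcrc1, Ndufv1 (the flavin-binding core subunit), Ndufa3, Ndufa7 and Ndufs5-ps lay between 0.43 and 0.60. All 15 had a positive NIK effect in Treg and a negative one in Tconv, which again follows in part from their choice by this difference. With median centring 0 genes were called on this side, and Ndufs5-ps turned to -0.038. Of all 28 calls, 7 passed whichever array was left out, namely Atp5pb, Ndufaf7, Sdhb, Atp5mpl, Ndufb4 and Atp5d, and Cox6a2, tested only through NIKtg Tconv.

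The mean unnormalized intensity of the arrays, given above, moved with this difference, being lowest on the NIKtg Treg arrays and highest on a NIKtg Tconv array. With the log2 mean intensity as a covariate, a fit chosen after seeing the data, 1 of the 75 genes was called for this difference, with 12.6% of all genes called. The gene was Cox6a2, which entered the test only through NIKtg Tconv. Atp5pb then had -1.90 with a limma adjusted p of 0.0749, and Sdhb -1.02 with a limma adjusted p of 0.0961. In the same fit 0 of the 75 genes were called for the NIK effect in Treg (4.08% of all genes), and 6, all higher, for that in Tconv (18.6% of all genes). For the difference of NIK effects intensity and group moved together, so this fit cannot tell them apart.

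Treg and Tconv were also compared within each genotype. In NIKtg Treg 16 of the 75 genes were higher and 8 lower than in NIKtg Tconv, 32% called, against 39.9% of all genes (23.1% higher, 16.9% lower). The median was 0.01 for the members and 0.08 for all genes. Over the 72 members detected on every array 16 were higher and 6 lower, or 30.6%, against 38% of all such genes. This comparison shares its arrays with those above. Complex I held 8 of the genes that were higher and 2 of those that were lower.

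Atp5pb was lower in NIKtg Treg than in NIKtg Tconv by 1.64 ± 0.26 on the log2 scale (limma adjusted p = 0.00251), from the values given above. Cox7a2l had -0.92 ± 0.19 (limma adjusted p = 0.0075), Atp5h -0.55, Sdhb -0.53 and Atp5l -0.47. Cox6a2 and Ndufb11 were below detection in NIKtg Treg, at least 1.20-fold and 1.22-fold lower than in NIKtg Tconv. Cox6a2 entered the test only through NIKtg Tconv, so its call here had to be lower and supports nothing. Atp5g1 was highest, with 11.81 and 11.71 in NIKtg Treg against 11.01 and 11.03 in NIKtg Tconv (0.74 ± 0.14, limma adjusted p = 0.00485). Atp5d (0.71), Atp5mpl (0.70), Ndufs6 (0.57), Ndufa7 (0.55) and Ndufa10 (0.54) followed. With median centring the split became 0 higher and 35 lower, the median of all genes moved to -0.47 and that of the members to -0.46, and 10 of the 16 genes that were higher changed sign. Of the 24 calls 8 passed whichever array was left out, and without NIKtg Treg array 1 there were 6 higher and 3 lower.

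Few genes passed the test between the cell types in WT. In WT Treg 2 of the 75 genes were higher than in WT Tconv and 0 lower, 2.67% called, against 24% of all genes (11.1% higher, 12.9% lower). At an unadjusted limma p under 0.05 there were 13. The median was 0.05 for the members and -0.06 for all genes. Ndufb7, an accessory subunit of the membrane arm of complex I, read 8.84 and 8.87 in WT Treg against 8.42 and 8.25 in WT Tconv (0.52 ± 0.11, limma adjusted p = 0.0159). Ndufaf7 read 7.02 and 7.05 in WT Treg against 6.37 and 6.65 in WT Tconv (0.53 ± 0.16, limma adjusted p = 0.0486). In both genes the groups did not overlap, which was also so for 66.3% of all genes. The share of members called moved to 10.7% without background correction, 12% with the authors' normalized table and 13.3% with trend and robust, and Ndufaf7 was no longer called in 5 of 10 planned settings. Atp5pb had the largest difference of all members, with 0.61 ± 0.26, but a limma adjusted p of 0.131. The call of Ndufb7 was lost without WT Treg array 1, WT Treg array 2 or WT Tconv array 2, and that of Ndufaf7 without WT Treg array 1, WT Treg array 2 or WT Tconv array 1, where the limma adjusted p reached 0.0843 and 0.228.

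**Figure D4:**
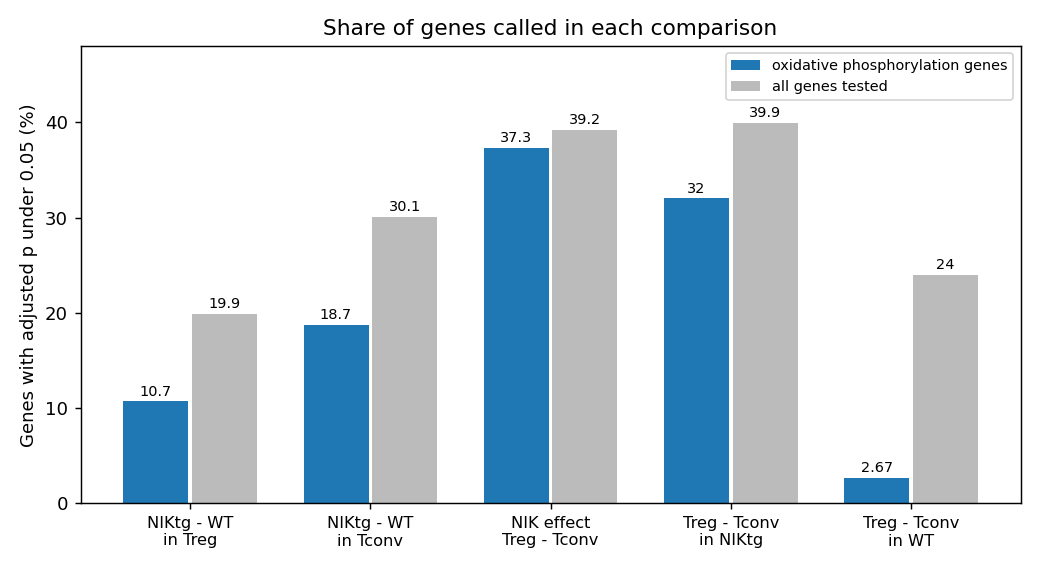
Share of genes with a limma adjusted p under 0.05 in each of the 5 comparisons, for the 75 tested oxidative phosphorylation genes and for all 7926 tested genes. In this fit the members' share was the lower in each comparison, from 2.67% against 24% in WT cells to 37.3% against 39.2% for the difference of NIK effects.

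The order of these shares turned in other settings. For the difference of NIK effects the members' share was 45.3% against 43% of all genes without background correction, 45.3% against 42.9% with the authors' normalized table, 42.7% against 42% with an offset of 50, 48% against 43.7% with the trend and robust options of limma and 24.7% against 16.1% with no filter on detection. For NIKtg Treg against NIKtg Tconv it was 46.7% against 44.3% with trend and robust and 22.4% against 18.6% with no filter. It was 10.6% against 7.88% for the NIK effect in Treg with no filter, and 34.7% against 34.6% for that in Tconv with trend and robust. Without the filter the genes tested rose from 7926 to 16593, but the members only from 75 to 85. Genes below detection thus weighed more in the share of all genes there, so those shares do not compare like sets. In WT Treg against WT Tconv the members' share was the lower in every setting that kept all arrays.

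Different probes of 1 gene did not always give the same answer. Of the tested genes 12 had several probes above detection, and the signs of these differed in 8 genes for the NIK effect in Treg and in 4 for that in Tconv. When each probe was tested on its own, 0 of the 12 genes had all probes called in 1 direction in any comparison, and 0 had probes called in opposite directions. The probe of Ndufa8 used above read 11.22 and 11.12 in NIKtg Tconv against 11.30 and 11.21 in WT Tconv (-0.09). Its dimmer probe read 9.74 and 9.67 in NIKtg Tconv against 8.90 and 9.21 in WT Tconv (0.65, limma adjusted p = 0.011 over all probes). For Atp5j, the coupling factor of the peripheral stalk, the probes gave 0.22 and 0.84 in Tconv. For Sdhb 2 of 3 probes were called in Tconv (0.77 and 0.63), and the dimmest was not (0.30).

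Genes that work beside these subunits were counted from 6 further lists. Of 39 other respiratory chain genes and assembly factors tested, 4 were higher and 1 lower in NIKtg Treg than in WT Treg, and 9 were higher and 3 lower in NIKtg Tconv than in WT Tconv. That was 12.8% called in Treg, against 19.9% of all genes, and 30.8% in Tconv, against 30.1%. Their medians were 0.09 in Treg and -0.02 in Tconv. Among 19 genes of the tricarboxylic acid cycle, which supplies NADH and succinate, 3 were higher and 1 lower in NIKtg Treg, and 2 were higher and 2 lower in NIKtg Tconv (21.1% called in each). Among 17 genes of mitochondrial biogenesis the counts were 1 higher and 1 lower in NIKtg Treg, and 3 higher and 1 lower in NIKtg Tconv (11.8% and 23.5% called). Of 25 genes of import and carriers 3 were higher and 0 lower in NIKtg Treg, and 0 were higher and 2 lower in NIKtg Tconv (12% and 8% called). Coenzyme Q synthesis had 0 calls in Treg and 1 lower in Tconv among 7 genes, and antioxidants and uncoupling had 0 in Treg and 1 higher in Tconv among 9.

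Some of these neighbours passed the threshold with larger changes than most subunits. Cox10, which makes heme a for cytochrome oxidase, read 10.81 and 10.53 in NIKtg Treg against 10.10 and 9.88 in WT Treg, and 9.66 and 9.73 in NIKtg Tconv against 11.00 and 11.05 in WT Tconv. Its NIK effects were 0.68 ± 0.13 in Treg (limma adjusted p = 0.0139) and -1.33 ± 0.13 in Tconv (limma adjusted p = 0.00066). Atpif1, the inhibitor protein of ATP synthase, read 11.89 and 11.70 in NIKtg Tconv against 10.69 and 10.35 in WT Tconv (1.27 ± 0.15, limma adjusted p = 0.00116), with 0.03 ± 0.15 in Treg. Surf1, an assembly factor of cytochrome oxidase, was higher in NIKtg Tconv (0.77). Idh2 and Ogdh of the tricarboxylic acid cycle were higher in NIKtg Treg (0.83 and 0.56) and lower in NIKtg Tconv (-1.23 and -0.42).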

How the data were processed

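RNA of sorted T cells was measured on 8 one-colour Illumina arrays, 2 for each of 4 groups given by the labels. The authors deposited 1 unnormalized, linear intensity per probe and array, and per the file headers a detection p-value stands beside it. They also deposited a table of normalized intensities, used as an alternative. The submitters' processing notes name GenomeStudio 2010.1; no build is given in the sources used here. The members and the gene lists were chosen with earlier results of these data known.

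Gene names came from the platform annotation, with 1 symbol for 23978 of 25697 probes, several for 0 and none for 1719. In R 4.3.3 with limma 3.58.1, intensities were corrected for background (nec with offset 16 and with negative controls inferred from detection p-values), put on the log2 scale and quantile normalized. Kept were 11526 probes (707 unnamed) that 2 or more arrays detected at p under 0.01. The brightest kept probe stood for a gene, which gave 7926 genes. All arrays entered 1 model with a coefficient for each group (lmFit, eBayes, two-sided, 4 residual and 3.55 prior degrees of freedom), with Benjamini-Hochberg adjustment over all genes of a comparison. Precision is limited by the number of arrays. A gene below detection in its dimmer group has a bound, the brighter group's mean against, per array, the higher of the lowest detected signal and its own. The fit was tested on simulated data.

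Named were, per comparison, complex and direction, up to 3 called members with the smallest adjusted p, in places more, and up to 2 others with the largest change. Members with isoforms were named too, as were the called genes of each list with the smallest adjusted p. Uqcrc2 was named outside these rules. Ndufa8, Atp5j and Atp5a1 were chosen after their values were seen. Alternatives changed the background correction, normalization, detection filter, probe choice, arrays in the fit, variance model, replicate block and each array. The mean intensity as a covariate was added after seeing the data.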

Additional observations from a re-analysis of the deposited data

Results flagged for a closer look

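In 28 genes the NIK effect differed between Treg and Tconv by the interaction test (limma, adjusted p under 0.05 over 7926 genes), where 39.2% of all genes did. Values are the NIK effect in Treg minus that in Tconv, as log2 fold changes. Lower in Treg were Atp5pb (-2.26), Cox6a2 (a fitted -1.44, below detection outside NIKtg Tconv), Ndufb11 (a fitted -1.22, below detection in NIKtg Treg), Ndufaf7 (-0.99), Cox7a2l (-0.97), Sdhb (-0.95), Atp5l (-0.85), Atp5h (-0.69), Ndufs3 (-0.67), Atp5o (-0.67), Ndufb7 (-0.63), Ndufb9 (-0.57) and Uqcrb (-0.51). Higher in Treg were Atp5mpl (0.96), Ndufb4 (0.90), Sdhc (0.83), Ndufaf3 (0.78), Atp5d (0.70), Ndufs6 (0.69), Cox7a2 (0.66), Atp5g1 (0.65), Ndufa10 (0.60), Ndufv3 (0.58), Uqcrc1 (0.56), Ndufv1 (0.55), Ndufa3 (0.53), Ndufa7 (0.52) and Ndufs5-ps (0.43). With 2 arrays a group, no array could be tested as standing apart.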

How the results depend on the processing

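Over the 5 comparisons 76 calls of 35 genes were made, of which 24 passed under each planned setting that kept all arrays, and 25 more failed with median centring alone. Of the 76 calls, 8 (of Atp5pb, Cox7a2l, Ndufaf7, Sdhb and Cox6a2, the last tested only through NIKtg Tconv) also passed whichever array was left out. Counts below are genes called higher and lower.

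For the NIK effect in Treg (7 and 1) they were 14 and 2 without background correction and with the authors' normalized table, 0 and 5 with median centring (median -0.10), 3 and 2 with only the groups compared, 15 higher with trend and robust, and 0 and 0 with the intensity covariate. For the NIK effect in Tconv (12 and 2) the lower count was 7 without background correction, with the authors' table and with trend and robust (19 higher), 5 with offset 50, 4 with detection on all 8 arrays, 1 with every probe a feature, and 0 without a filter, with only the groups compared and with median centring (median 0.24). The covariate gave 6 and 0. For the difference (15 and 13) median centring gave 0 higher with a median of -0.37, and the covariate gave 0 and 1. In NIKtg Treg against NIKtg Tconv (16 and 8) median centring gave 0 and 35 with a median of -0.46, every probe a feature gave 13 lower, and the covariate gave 0 and 1. In WT Treg against WT Tconv (2 and 0) the counts were 6 and 2 without background correction, 7 and 2 with the authors' table, 7 and 3 with trend and robust, 1 lower with offset 50 and with detection on all 8 arrays, 4 higher with every probe a feature, 1 higher without a filter and with the covariate, and 0 higher with median centring (median -0.046). With every probe a feature, probes are counted and not genes. The cause of these shifts was not tested.

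Directions turned with median centring for Ndufs5-ps in the difference (-0.038) and, in NIKtg Treg against NIKtg Tconv, for Cox7a2 (-0.081), Ndufa3 (-0.052), Ndufb10 (-0.075), Ndufb4 (-0.13), Ndufs5-ps (-0.23), Ndufs7 (-0.10), Ndufv1 (-0.14), Sdhc (-0.037), Uqcr11 (-0.091) and Uqcrc1 (-0.018). With the covariate Sdhc turned there to -0.0060.

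Leaving out 1 array gave 0 to 6 higher and 0 to 2 lower for the NIK effect in Treg (median 0.10 to 0.14), 1 to 14 and 0 to 1 in Tconv (0.10 to 0.17), 4 to 15 and 5 to 13 for the difference (-0.04 to 0.02), 6 to 15 and 3 to 11 in NIKtg Treg against NIKtg Tconv (0.00 to 0.04), and 0 to 4 and 0 to 1 in WT Treg against WT Tconv (0.02 to 0.06). A lone array was assumed to vary like the other groups.

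With the replicate block the counts were 8 and 1, 11 and 4, 15 and 14, 16 and 9, and 1 and 0, in the same order. Deviations of same-numbered arrays correlated at -0.02 to 0.14 over all genes, and over the members at -0.12 to 0.43 (0.43 between NIKtg Treg and WT Tconv, 0.20 between WT Treg and WT Tconv), so the numbers were not taken as pairs.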
